A study of Homo sapiens with 45 samples.

Results

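The genes described here are the 4 receptors of the EGFR family, EGFR, ERBB2, ERBB3 and ERBB4, and 6 of the ligands that bind them, AREG, EREG, TGFA, HBEGF, BTC and EPGN. They were found by matching the gene identifiers of the deposited count table to GENCODE 29 symbols, which gave 1 row for each of the 10 names among 64485 genes. RNA was sequenced from 15 human breast cancer cell lines labelled wild type, with no treatment named and 3 libraries per line, 45 in all. In RPMI 1640 grew 8 lines, BT-549 and the 7 whose names begin with HCC, which are HCC38, HCC70, HCC1143, HCC1187, HCC1395, HCC1806 and HCC1937. In L-15 grew 5 lines, which are MDA-MB-436, MDA-MB-231, MDA-MB-157, MDA-MB-468 and MDA-MB-453. BT-20 grew in EMEM and Hs578T in DMEM. Serum and antibiotics were in every medium, L-glutamine is named as an addition for the lines not in L-15, insulin for BT-20, BT-549 and MDA-MB-436, and glutathione for MDA-MB-436. Separate cultures are not named in the labels for the 3 libraries of a line, and p-values therefore measure the spread between these libraries, which may be technical. A lower level of a transcript in a bulk sample can reflect fewer cells carrying it or less RNA per cell, and these cannot be told apart here.

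The receptors are tyrosine kinases of the cell surface that signal as pairs. EGFR binds EGF-like ligands, ERBB2 has no known ligand of its own and acts as a partner, ERBB3 binds neuregulins and has little kinase activity, and ERBB4 binds both neuregulins and some EGF-like ligands. AREG, EREG, TGFA, HBEGF, BTC and EPGN are made as membrane-bound precursors that proteases cut loose. AREG, TGFA and EPGN are known as EGFR ligands, whereas HBEGF, BTC and EREG also bind ERBB4. In the mammary gland amphiregulin, the product of AREG, carries growth signals between cells, and in breast cancer ERBB2 is the gene whose amplification defines HER2-positive disease.

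Library totals ran from 2312138 to 14653677 counts with a median of 6263573. The lowest, Hs578T replicate 2, stands apart from the other libraries of its line for several of these genes, so each call for Hs578T is given with and without it. The labels give sequencing runs 1 and 2 for 4 lines (Hs578T, MDA-MB-231, HCC38 and HCC1143) and runs 3, 4 and 5 for the remaining 11. Every line is labelled epithelial, but 15 epithelial markers summed to 14.3 CPM (counts scaled to a common library size with TMM factors) at the least, in BT-549, and 10153 CPM at the most, in BT-20. Of those 15 markers, 10 were under 1 CPM in HCC1395, 9 in BT-549, 9 in MDA-MB-436, 7 in Hs578T, 6 in MDA-MB-157 and 5 in MDA-MB-231. Blood markers were low throughout, with sums of 1.62 to 8.59 CPM over 6 genes. The 6 endothelial markers summed to 3.74 to 29.2 CPM outside BT-20, where CDH5 brought the sum to 129 CPM.

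All 10 genes passed the filter on low counts and differed among the lines at an adjusted p under 0.05 in edgeR's quasi-likelihood F test. So did 98.2% of the 20587 genes tested, so that count is the background. The smallest F statistic among them was that of ERBB4, with F = 24.9 and adjusted p = 3.33e-16, and EREG had the largest, with F = 443 and adjusted p = 1.32e-40. Each line was then set against the average of the 14 others in that fit, taken on the log scale. A gene was called higher or lower at an adjusted p under 0.05 and a log2 difference of at least 1. Over the 15 lines, 13.3% to 20.9% of all genes were called higher and 9.19% to 22.9% lower. CPM values below are means ± SD over the 3 libraries of a line (n = 3), differences are log2 fold changes against that average with their SE, and adjusted p-values come from that edgeR fit.

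EGFR (chr7:55019021-55211628, plus strand, GRCh38) encodes the receptor that gives the family its name. In MDA-MB-468 its level was 2682, 1361 and 1634 CPM in replicates 1, 2 and 3, a mean of 1892 ± 698 CPM. BT-20 had 866, 654 and 849.9 CPM and HCC1806 227, 233 and 219 CPM. The ranges of these 3 lines did not overlap with each other or with any other line. Below them, each line overlapped with the next, apart from HCC70 over MDA-MB-436, from BT-549 at 172 ± 6.70 CPM to HCC38 at 61.5 ± 9.87 CPM. The log2 difference was 4.47 (SE 0.09, adjusted p = 8.87e-38) in MDA-MB-468, 3.12 (SE 0.10, adjusted p = 7.23e-30) in BT-20 and 1.18 (SE 0.12, adjusted p = 6.64e-12) in HCC1806. At the low end, MDA-MB-453 had 1.32, 2.44 and 3.43 CPM, from 46 counts in all, and a log2 difference of -5.78 (SE 0.24, adjusted p = 2.78e-25). HCC1395 at 38.4 ± 2.52 CPM and MDA-MB-157 at 27.9 ± 3.37 CPM were also called lower. The mean in MDA-MB-468 was 790.0 times that in MDA-MB-453. Exons of EGFR overlap those of EGFR-AS1 on the opposite strand, and reads of the pair could be told apart only if strand was used in the counting.

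ERBB2 (chr17:39687914-39730426, plus strand) showed 1 high line and a narrow spread in the rest. MDA-MB-453 had 508, 493 and 543 CPM, all far above BT-20, the next line, at 78.4 ± 6.37 CPM. Its log2 difference was 3.75 (SE 0.08, adjusted p = 1.85e-36), and no other line was called higher. The other 14 lines covered 15.0 ± 0.691 CPM in HCC1395 to the BT-20 level. Of these, 4 lines, HCC1395, MDA-MB-436, BT-549 and Hs578T, were called lower, at -1.71, -1.46, -1.12 and -1.01. The call in Hs578T rested on replicate 2, where ERBB2 was 12.6 CPM against 31.3 and 24.6 CPM. Without that library the difference was -0.76, and with the sequencing run as a block it was -0.98, both short of the limit of 1. Exons of ERBB2 overlap those of MIEN1 and PGAP3 on the opposite strand, and the strand setting of the counting is not given in the sources used here, so reads of the 3 genes may be mixed.

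ERBB3 (chr12:56076799-56103505, plus strand) divided the lines into a high and a low set. Its level in MDA-MB-453 was 267, 321 and 309 CPM and in HCC70 144, 144 and 162 CPM, above the remaining lines. HCC1806, BT-20, MDA-MB-468, HCC1187, HCC1143, HCC1937 and HCC38 followed at 82.6 ± 0.507 CPM down to 52.9 ± 4.80 CPM. All 9 of these lines were called higher, with log2 differences of 1.15 (HCC38) to 3.83 (MDA-MB-453). MDA-MB-231 stood between the sets at 14.5 ± 5.07 CPM without a call. HCC1395 had 9.77 ± 1.18 CPM, and BT-549, Hs578T, MDA-MB-436 and MDA-MB-157 lay at 3.12, 2.42, 2.38 and 2.29 CPM. These 5 were called lower, at -1.46 in HCC1395 and -3.22 to -3.77 in the others. ERBB3 shares exons with the protein-coding gene AC034102.2 on the same strand, and reads there cannot be assigned to 1 of the pair.

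ERBB4 (chr2:211375717-212538841, minus strand) was the receptor with the fewest reads, at most 199 counts in a library. MDA-MB-453 had 27.0, 24.0 and 27.3 CPM and a log2 difference of 3.16 (SE 0.19, adjusted p = 2.17e-19), and its range overlapped with no other line. Hs578T came next with 4.60, 16.2 and 5.47 CPM, where replicate 2 was more than the other replicates together. The difference for Hs578T was 1.37 with all libraries and 0.67 without replicate 2, which ends the call. HCC70 at 0.983 ± 0.572 CPM and HCC1937 at 1.34 ± 0.498 CPM were called lower, and in the other 11 lines the means of 2.17 to 5.21 CPM overlapped from neighbour to neighbour.

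**Figure D1:**
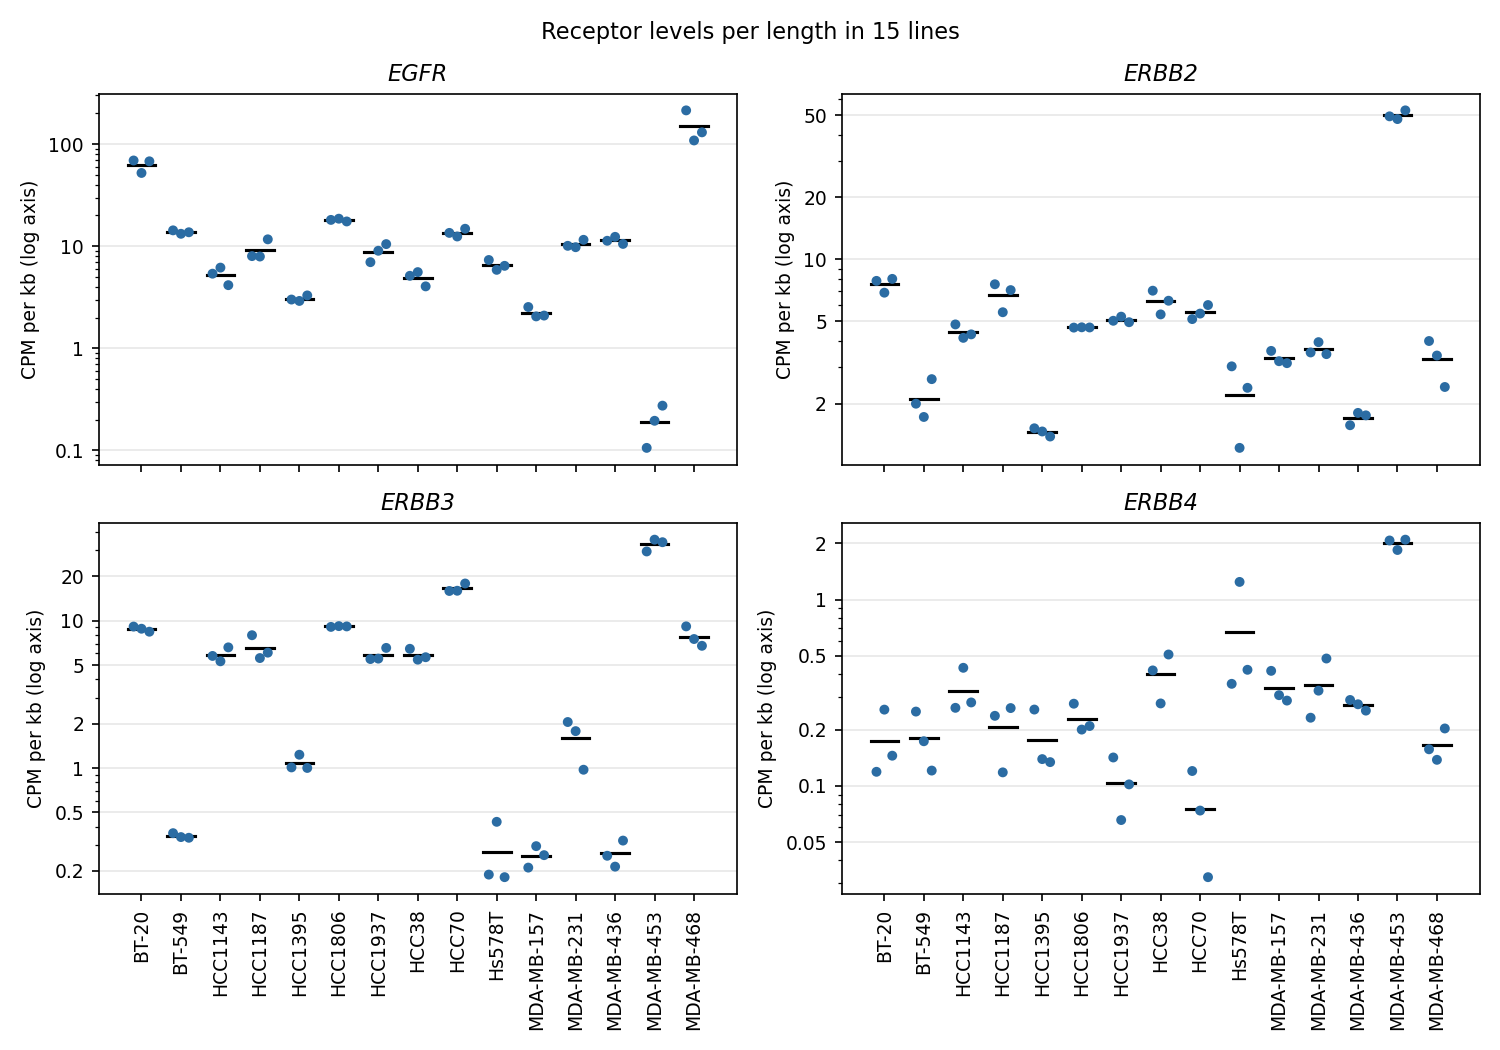
Level of each receptor in CPM per kilobase of merged exons (log axis, a separate scale per panel) by cell line; points are the 3 libraries of a line and the bar is their mean. EGFR is highest in MDA-MB-468 at 151 ± 55.7 CPM per kb, and ERBB2, ERBB3 and ERBB4 are highest in MDA-MB-453, the line in which EGFR is lowest.

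Set side by side per length, the receptors gave a different profile in each line. EGFR had the highest level per kilobase of merged exons in 10 lines, ERBB2 in HCC38, MDA-MB-157 and MDA-MB-453, and ERBB3 in HCC1143 and HCC70. EGFR made up 92.7% ± 1.76 of the receptor total per length in MDA-MB-468, 83.9% ± 2.04 in BT-549, 83.5% ± 1.39 in MDA-MB-436 and 79.0% ± 2.13 in BT-20. In MDA-MB-453 it made up 0.222% ± 0.0885, against 58.6% ± 2.45 for ERBB2 and 38.8% ± 2.61 for ERBB3. Several lines were close to even: in HCC1143 the share was 32.8% ± 5.68 for EGFR, 28.0% ± 1.94 for ERBB2 and 37.2% ± 5.17 for ERBB3, and those of EGFR and ERBB3 do not differ beyond their spread. ERBB4 never reached the top. Its share in Hs578T was 3.24%, 14.2% and 4.47% in replicates 1, 2 and 3, a mean of 7.30% that fell to 3.85% without replicate 2, and in MDA-MB-157 it was 5.45% ± 0.607. These ranks depend on the length used. The merged exons of ERBB2 span 10321 bases and its longest transcript 4930 bases, and with the longest transcript ERBB2 led in 5 lines, EGFR in 9 and ERBB3 in 1.

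The receptor total per length was 162 ± 57.3 CPM per kb in MDA-MB-468, 85.2 ± 4.09 in MDA-MB-453 and 79.6 ± 9.97 in BT-20. At the other end it was 5.78 ± 0.0353 in HCC1395 and 6.13 ± 0.546 in MDA-MB-157. EGFR carried the total in MDA-MB-468 and BT-20, and ERBB2 with ERBB3 in MDA-MB-453.

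Of the ligand genes, 4 lie together on chromosome 4 in the order EPGN (chr4:74308473-74315307, plus strand), EREG (chr4:74365143-74388751, plus strand), AREG (chr4:74445134-74455009, plus strand) and BTC (chr4:74744759-74794686, minus strand). The gaps between neighbours are 49.8 kb, 56.4 kb and 289.8 kb. The sequences upstream of EPGN, EREG and AREG are shown because these neighbours were high together in HCC38 and HCC1806. Each is the 250 bases before the start of the gene in RefSeq (GRCh38.p14, plus strand), at chr4:74308220-74308469, chr4:74364895-74365144 and chr4:74444886-74445135. Capitals mark, on either strand, a match to the TATA box, the CCAAT box, the TEAD site, the SP1 site or the cyclic AMP response element, whose letters are spelled out after the sequences:
EPGN: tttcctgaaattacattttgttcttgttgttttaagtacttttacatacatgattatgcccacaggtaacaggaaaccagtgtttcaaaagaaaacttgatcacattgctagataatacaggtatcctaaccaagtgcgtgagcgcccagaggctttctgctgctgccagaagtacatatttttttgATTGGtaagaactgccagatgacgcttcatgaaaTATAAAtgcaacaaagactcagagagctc
EREG: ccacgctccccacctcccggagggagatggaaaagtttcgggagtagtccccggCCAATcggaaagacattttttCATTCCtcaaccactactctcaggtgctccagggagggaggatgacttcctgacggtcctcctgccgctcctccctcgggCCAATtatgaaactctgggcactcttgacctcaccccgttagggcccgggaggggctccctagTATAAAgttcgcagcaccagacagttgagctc
AREG: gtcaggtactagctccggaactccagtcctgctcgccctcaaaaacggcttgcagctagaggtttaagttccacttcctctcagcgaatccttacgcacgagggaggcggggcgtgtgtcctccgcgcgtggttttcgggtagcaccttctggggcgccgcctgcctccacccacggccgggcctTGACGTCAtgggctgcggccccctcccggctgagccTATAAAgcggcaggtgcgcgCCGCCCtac
All 3 windows hold the TATA box, searched as TATAAA, and so do 10.7% of 35116 RefSeq promoter windows of the same length. The windows of EPGN and EREG hold the box searched as CCAAT, which was found in 32.0% of all windows. The EREG window also holds the TEAD site, searched as GGAATG and found in 11.9% of windows. The cyclic AMP response element, searched as TGACGTCA, was found in 1.65% of windows and, among the 9 of the 10 genes with an entry in that table, only upstream of AREG. The SP1 site of the AREG window, searched as GGGCGG, was found in 42.6% of windows. The AP-1 site, searched as TGANTCA and present in 6.57% of windows, did not occur in these 3. Nor did the E-box, searched as CACGTG and present in 6.34% of windows. A match describes letters in the window and not binding. None of the matches in the 3 windows overlaps another.

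AREG encodes amphiregulin. MDA-MB-231 had 337, 211 and 181 CPM and HCC38 166, 255 and 241 CPM, and the ranges of these top lines overlapped. Each was several times above HCC1806 at 34.5 ± 2.54, HCC1937 at 25.3 ± 4.01 and HCC70 at 18.9 ± 1.99 CPM. All 5 were called higher, with log2 differences of 5.78 (SE 0.12, adjusted p = 1.11e-37) in MDA-MB-231, 5.63 (SE 0.12, adjusted p = 3.48e-37) in HCC38 and 1.84 to 2.76 in the others. Every other line was at or below 5.21 ± 0.487 CPM, the level of BT-20. HCC1395, with 0.608, 0 and 0.308 CPM from 7 counts in all, was the lowest, and HCC1187, BT-549, MDA-MB-157, Hs578T, MDA-MB-453 and MDA-MB-436 were also called lower.

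EREG encodes epiregulin and had the widest range of the 10 genes. In MDA-MB-436 it was 659.7, 669 and 406 CPM, and the log2 difference was 7.12 (SE 0.10, adjusted p = 1.65e-43). HCC38 followed with 189, 325 and 275 CPM, below each value of MDA-MB-436. HCC1937 at 99.2 ± 6.53, HCC1806 at 86.3 ± 6.47, MDA-MB-231 at 58.9 ± 8.77 and BT-20 at 18.1 ± 2.18 CPM were called higher as well. HCC70, at 5.89 ± 1.09 CPM, was near the log-scale average of the other lines, with a log2 difference of 0.06. The remaining 8 lines were at 1.81 ± 0.520 CPM or less and were called lower. HCC1143, HCC1395 and HCC1187 held 5, 5 and 3 counts over their 3 libraries. In HCC1187 that is a mean of 0.186 CPM, with an exact 95% Poisson interval for counting error alone of 0.0373 to 0.529 CPM.

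AREG and EREG parted in MDA-MB-436, where EREG was at its highest and AREG, at 2.95, 3.87 and 1.85 CPM, was called lower at -1.08. MDA-MB-453, called lower for AREG at -1.15, and MDA-MB-436 lost that call when compared within their own runs, with differences of -0.29 and -0.21. The call was also lost in MDA-MB-436 without replicate 3 of every line (-0.80) and with stricter scaling genes (-0.97). In MDA-MB-453 it was lost without replicate 2 of every line (-0.98).

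EPGN encodes epigen. HCC70 had 36.5, 46.2 and 37.5 CPM and HCC38 22.2, 39.0 and 45.9 CPM, and these ranges overlapped. HCC1806 had 8.93 ± 1.24 CPM and BT-20 4.13 ± 0.219 CPM, and these 4 lines were called higher at 4.58, 4.40, 2.26 and 1.08. The next line, Hs578T, had 0.525, 5.10 and 2.37 CPM, and 7 lines were called lower. HCC1395 was the lowest, with 7 counts in all. The lower calls in HCC1143, BT-549, MDA-MB-436 and MDA-MB-453 rested on 16 to 19 counts a line. Each was lost when 1 replicate number was left out of every line.

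BTC encodes betacellulin. It was highest in HCC70 at 23.6, 30.3 and 25.7 CPM and HCC38 at 30.7, 25.0 and 21.9 CPM, with overlapping ranges, followed by HCC1937 at 16.7 ± 0.385 and HCC1143 at 15.0 ± 2.75 CPM. These 4 lines were called higher, at 2.96, 2.92, 2.24 and 2.08. HCC1806 was the lowest line with 0.469, 0.490 and 0.569 CPM and a log2 difference of -3.08 (SE 0.40, adjusted p = 5.76e-09), although AREG, EREG and EPGN were all called higher there. HCC1143 was the reverse, with BTC called higher and EREG and EPGN lower. BT-549, MDA-MB-157, MDA-MB-453, Hs578T and MDA-MB-436 were also called lower. For MDA-MB-436 the value of -1.01 is at the limit. It was -0.99 with the run as a block, -0.73 within its own runs and -0.72 without replicate 3 of every line. In Hs578T the call was lost without replicate 1 of every line (edgeR adjusted p = 0.0718) and without replicate 3 (-0.94).

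TGFA (chr2:70447280-70554193, minus strand) encodes transforming growth factor alpha. It was called higher in 8 lines and lower in 4. HCC38 had 278, 320.2 and 218 CPM, above all other lines, and a log2 difference of 3.84 (SE 0.10, adjusted p = 1.99e-33). HCC1806, BT-20, HCC1937 and MDA-MB-231 lay between 99.0 and 124 CPM and overlapped from neighbour to neighbour. HCC70, MDA-MB-468 and HCC1395 followed at 83.3 ± 5.97, 66.5 ± 7.11 and 63.1 ± 3.58 CPM. The 4 low lines were far below, with MDA-MB-453 at 1.54 ± 0.336, Hs578T at 1.33 ± 1.21, MDA-MB-157 at 1.24 ± 0.668 and BT-549 at 0.446 ± 0.0951 CPM. BT-549 had 0.515, 0.485 and 0.337 CPM from 9 counts in all, and a log2 difference of -6.06 (SE 0.30, adjusted p = 2.42e-22). Hs578T, MDA-MB-157 and BT-549 were among the 4 lines with the least ERBB3, whereas MDA-MB-453 had the most. MDA-MB-436, also among those 4, had no call for TGFA, at 0.19.

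HBEGF (chr5:140332843-140346631, minus strand) encodes heparin-binding EGF-like growth factor. MDA-MB-231 had 47.8, 50.2 and 42.3 CPM, Hs578T 20.5, 53.4 and 28.6 CPM, MDA-MB-157 25.6, 28.7 and 35.2 CPM, and HCC1937 25.6, 20.8 and 19.8 CPM. These 4 lines were called higher, at 2.37, 1.84, 1.67 and 1.20. In Hs578T replicate 2 was above every library of MDA-MB-231 and the other replicates were below all of them, and the difference was 1.40 without it. HBEGF was the 1 ligand that was called higher in MDA-MB-157 and Hs578T. The 9 lines without a call lay between 5.33 ± 1.53 CPM in MDA-MB-468 and 17.8 ± 1.86 CPM in MDA-MB-436. BT-20 had 3.04 ± 0.585 CPM, and MDA-MB-453 0.567, 0.348 and 0.137 CPM from 6 counts, with a log2 difference of -5.21 (SE 0.38, adjusted p = 2.23e-16).

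**Figure D2:**
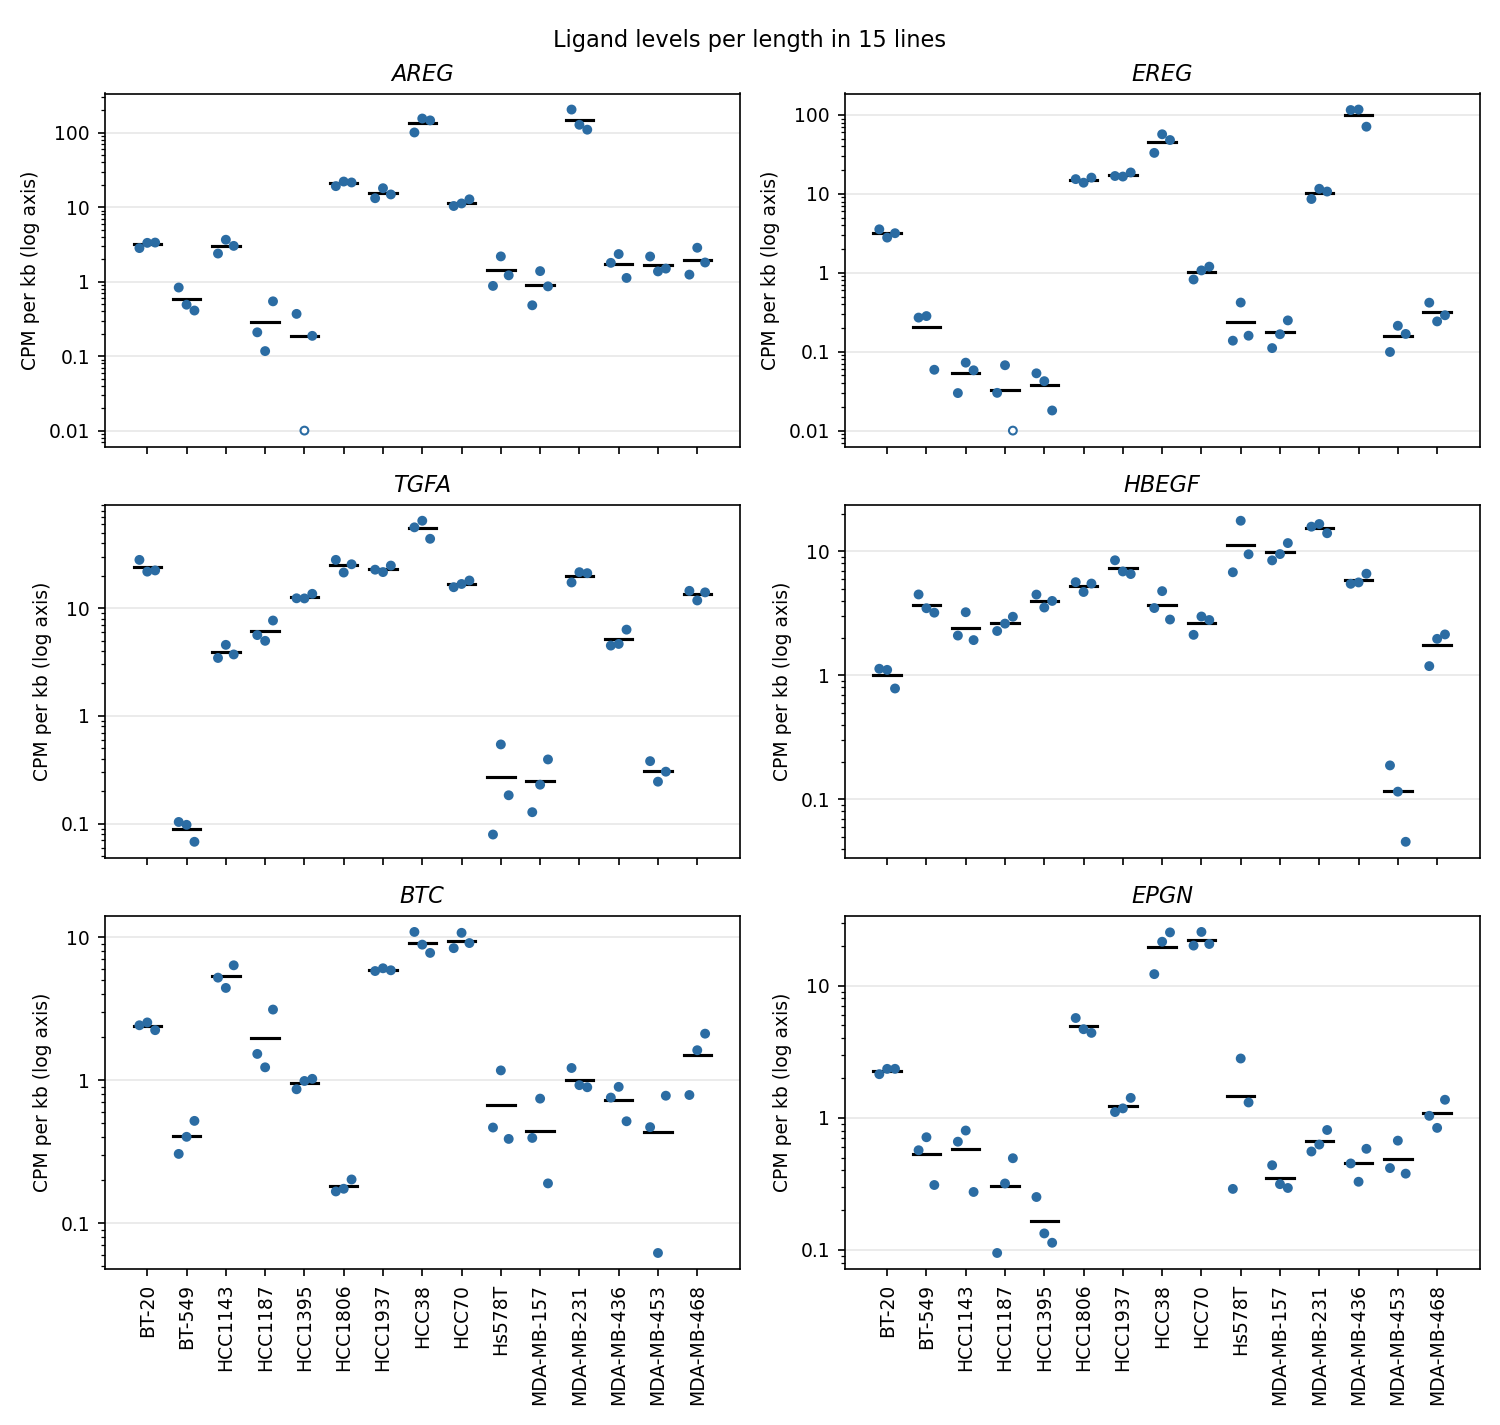
Level of each ligand in CPM per kilobase of merged exons (log axis, a separate scale per panel) by cell line; points are the 3 libraries of a line, the bar is their mean, and an open circle drawn at 0.01 stands for a library with 0 counts. AREG is highest in MDA-MB-231 and HCC38, EREG in MDA-MB-436 and TGFA in HCC38, and HBEGF is lowest in MDA-MB-453 at 0.116 ± 0.0712 CPM per kb.

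Per length, TGFA was the leading ligand in 6 lines, AREG and HBEGF in 3 each, and EREG, BTC and EPGN in 1 each, with the same leaders when the longest transcript was used as the length. EREG made up 87.2% ± 4.19 of the ligand total in MDA-MB-436, HBEGF 67.4% ± 3.33 in BT-549, 74.8% ± 3.67 in Hs578T and 82.3% ± 4.61 in MDA-MB-157, and AREG 74.5% ± 6.91 in MDA-MB-231. TGFA made up 70.4% ± 2.85 in HCC1395, 67.0% ± 7.62 in MDA-MB-468 and 66.5% ± 2.98 in BT-20. TGFA in HCC1187, with 54.2% ± 2.99, and AREG in MDA-MB-453, with 52.3% ± 5.65, were near an even split with the rest. In HCC1806 TGFA had 34.9% ± 2.93 and AREG 29.4% ± 3.58, and in HCC70 EPGN had 34.8% ± 2.68 and TGFA 26.5% ± 1.79. The ligand total was largest in HCC38 at 267 ± 47.9 CPM per kb, MDA-MB-231 at 195 ± 47.4 and MDA-MB-436 at 115 ± 25.1, and smallest in BT-549 at 5.54 ± 1.01 and MDA-MB-453 at 3.19.

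**Figure D3:**
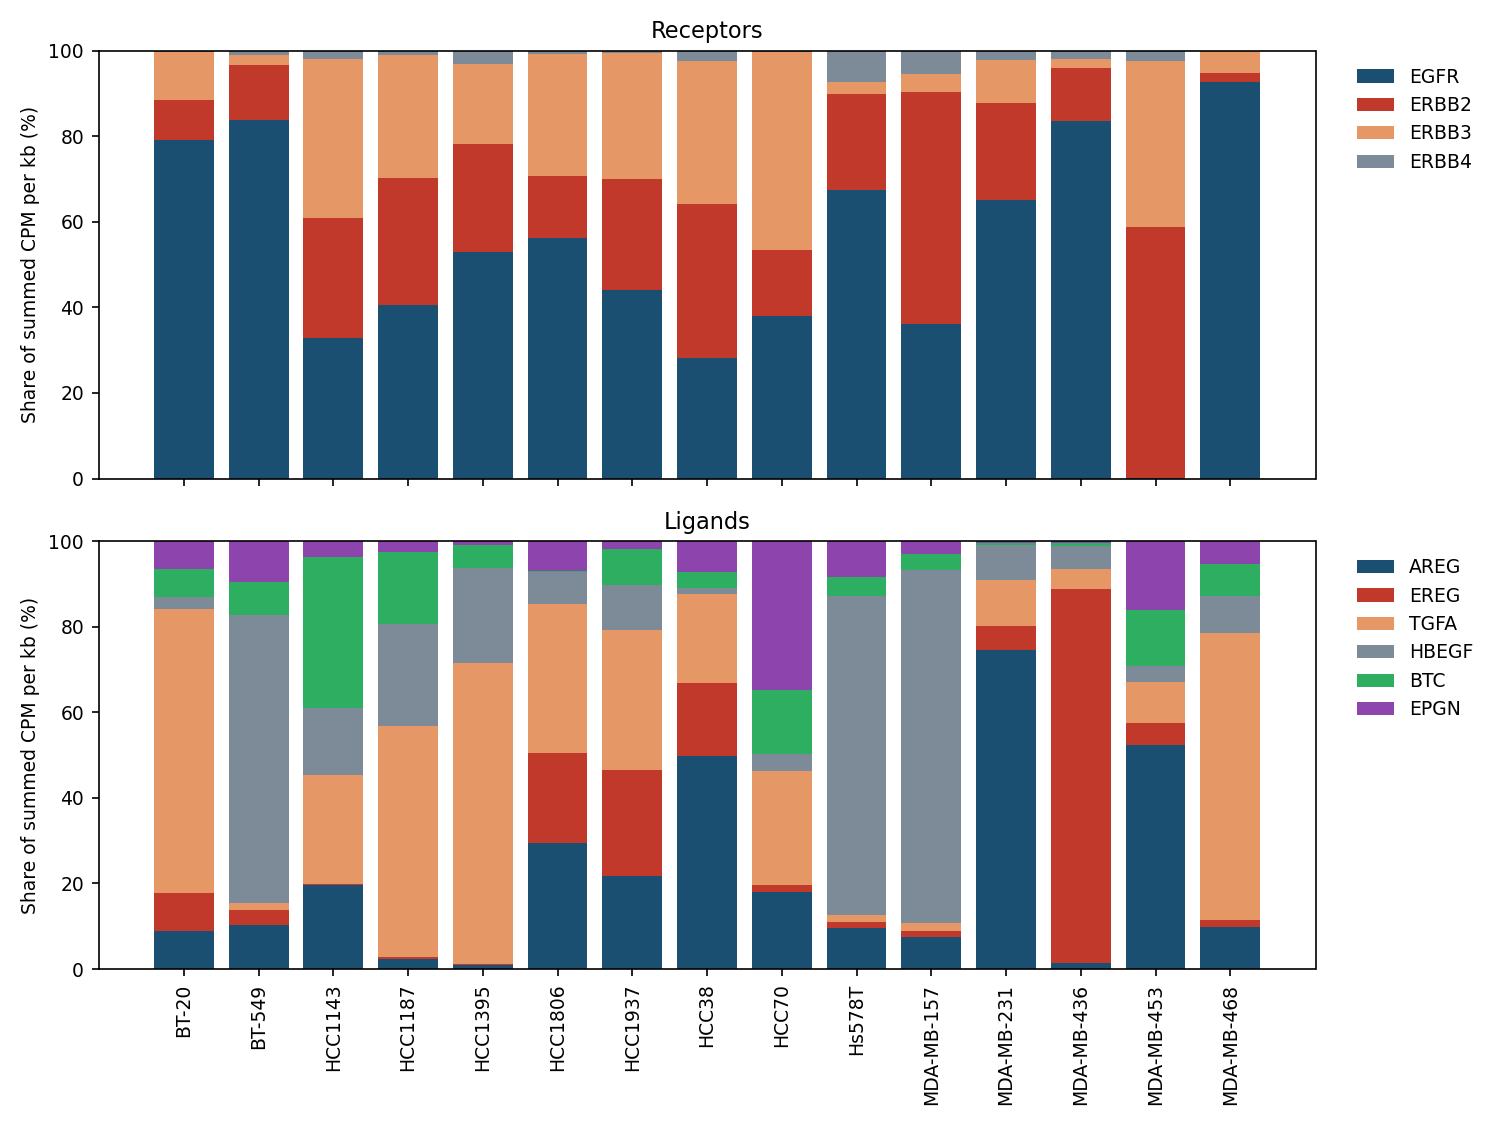
Share of each receptor in the summed level of the 4 receptors (upper panel) and of each ligand in that of the 6 ligands (lower panel), in percent of CPM per kilobase, as the mean of 3 libraries per line. EGFR fills 92.7% of the receptor bar in MDA-MB-468 and 0.222% in MDA-MB-453, and the leading ligand changes from line to line.

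Read by line, the family fell into several combinations. MDA-MB-453 was alone in having EGFR and all 6 ligands called lower with ERBB2, ERBB3 and ERBB4 called higher. That is 3 of 10 genes higher and 7 lower, against 17.7% of all genes tested higher and 14.6% lower. BT-549 had 0 higher and 7 lower, ERBB2, ERBB3 and every ligand except HBEGF (13.3% of all genes tested higher and 10.7% lower), while EGFR was at 0.76 without a call. MDA-MB-157 had HBEGF higher and 7 lower (20% of all genes tested higher and 12.4% lower), and Hs578T had HBEGF and ERBB4 higher and 6 lower (20.9% of all genes tested higher and 9.56% lower). MDA-MB-436 had EREG higher and 5 lower, namely ERBB2, ERBB3, AREG, BTC and EPGN (16.4% of all genes tested higher and 10.9% lower). HCC1395 had TGFA higher and 6 lower, which were EGFR, ERBB2, ERBB3, AREG, EREG and EPGN (14.4% of all genes tested higher and 17.7% lower). These 5 lines, BT-549, MDA-MB-157, Hs578T, MDA-MB-436 and HCC1395, are the lines with the most epithelial markers under 1 CPM, and their 12 mesenchymal markers summed to 2105 to 12188 CPM. In HCC1395, 5 of the 12 were called higher and 6 lower, SNAI2, SPARC, COL3A1, COL1A1, COL1A2 and PDGFRB. MDA-MB-231, the next line with 5 epithelial markers under 1 CPM and a mesenchymal sum of 2072 CPM, had 0 of the 10 genes lower.

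Without replicate 2 of Hs578T, ERBB2 and ERBB4 lost their calls there and the others kept theirs, with log2 differences of -4.13 for ERBB3, -1.86 for AREG, -2.91 for EREG, -5.48 for TGFA, -1.75 for BTC and 1.40 for HBEGF. The share of HBEGF in the ligand total was then 76.5%.

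At the other end, HCC38 had 6 genes higher and 0 lower (13.8% of all genes tested higher and 10.2% lower), which were ERBB3 and every ligand but HBEGF. HCC1806 had EGFR, ERBB3, AREG, EREG, TGFA and EPGN higher and BTC lower (15.9% of all genes tested higher and 13.7% lower). HCC1937 had 6 higher, ERBB3 and all ligands except EPGN, and ERBB4 lower (14.5% of all genes tested higher and 10.8% lower). BT-20 had EGFR, ERBB3, EREG, TGFA and EPGN higher and HBEGF lower (14.2% of all genes tested higher and 11.3% lower). HCC70 had ERBB3, AREG, TGFA, BTC and EPGN higher and ERBB4 lower (17.7% of all genes tested higher and 22.9% lower). MDA-MB-231 had AREG, EREG, TGFA and HBEGF higher, 0 lower, and no receptor called (15% of all genes tested higher and 10.5% lower). MDA-MB-468 had EGFR, ERBB3 and TGFA higher and EREG lower (14.7% of all genes tested higher and 9.19% lower). HCC1143 had ERBB3 and BTC higher and EREG and EPGN lower (18.4% of all genes tested higher and 11.3% lower). HCC1187 had ERBB3 higher and AREG, EREG and EPGN lower (16.4% of all genes tested higher and 12.5% lower). In all, 46 of the 150 pairs of a gene and a line were called higher and 48 lower.

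**Figure D4:**
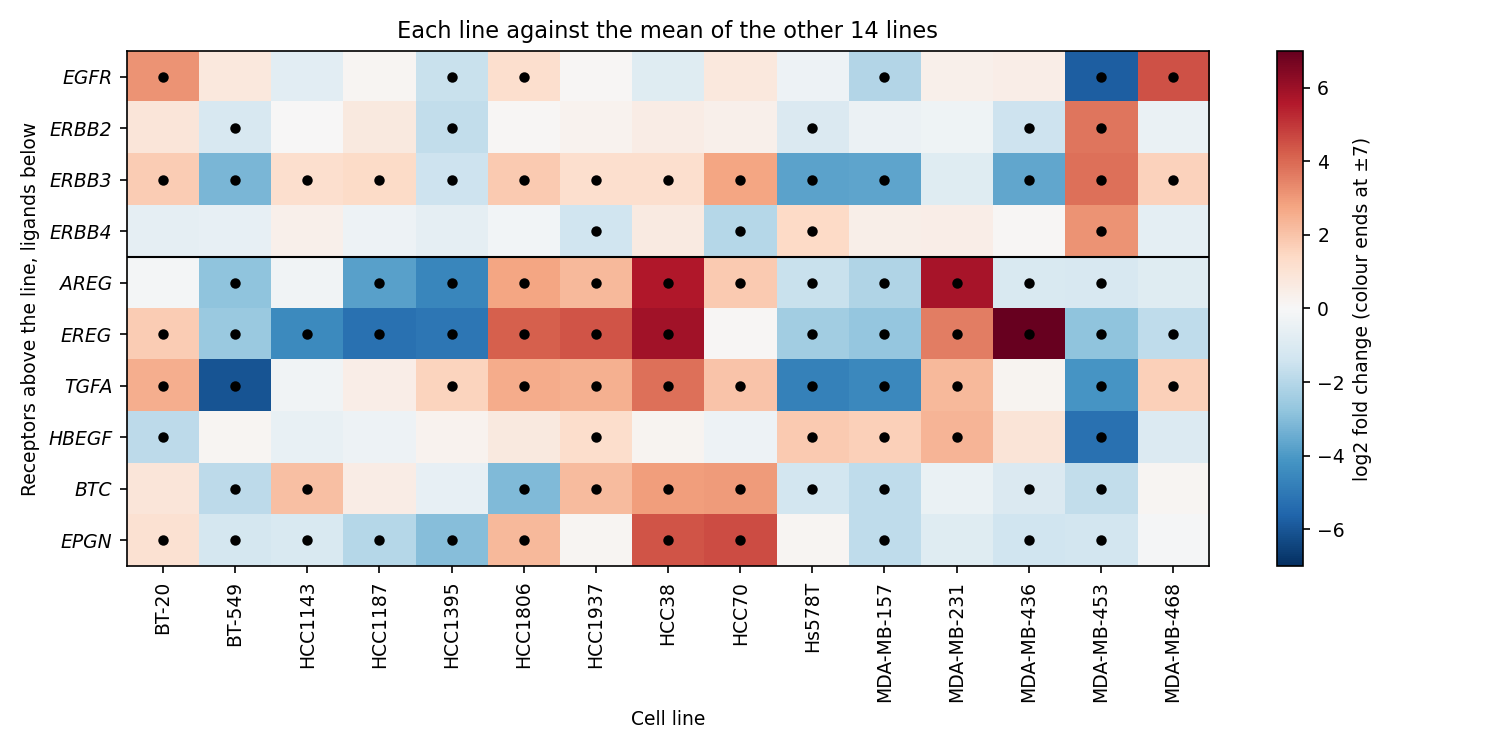
Log2 fold change of each gene (rows) in each line (columns) against the other 14 lines' mean in the edgeR fit; red is higher, blue lower, the colour scale ends at 7 in both directions, and a dot marks a call. MDA-MB-453 is blue for EGFR and all 6 ligands and red for the other 3 receptors.

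The 4 lines of runs 1 and 2 and the 11 lines of runs 3 to 5 were also compared within their own set. Of the 94 calls, 5 were lost, among them ERBB3 in HCC1937 at 0.98 and ERBB2 in Hs578T at -0.97, and 8 pairs were called that had not been. HBEGF in HCC38 changed its sign, from 0.17 without a call to -1.08 against the 3 other lines of its runs, which include MDA-MB-231 and Hs578T.

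Levels of receptors and their ligands across the 15 lines were compared by Pearson's r of log2 CPM, given as a description because all values come from the same libraries. EGFR had r = 0.46 with TGFA, 0.26 with EPGN, 0.25 with HBEGF, 0.24 with EREG, 0.21 with BTC and 0.12 with AREG. Within the 11 lines of runs 3 to 5 the same values were 0.56, 0.38, 0.29, 0.30, 0.34 and 0.25. The value for HBEGF turned to -0.48 without MDA-MB-453 and MDA-MB-468, the lines farthest from the median of EGFR. It was -0.56 without MDA-MB-453 alone and 0.41 without MDA-MB-468 alone, so its sign rested on MDA-MB-453. For ERBB4, r was -0.45 with BTC, -0.36 with HBEGF and -0.14 with EREG. Without HCC70 and MDA-MB-453 they were -0.14, 0.44 and 0.01. Within the 11 lines they were -0.65, -0.62 and -0.20. Over all 15 lines none of these 9 values went beyond 0.5 in either direction. MDA-MB-468, the line highest in EGFR, ranked 8 of 15 in its ligand total.

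Within the receptors, ERBB2 and ERBB3 had r = 0.77 and Spearman's rho = 0.75 (r = 0.84 without HCC1395 and MDA-MB-453, 0.76 within runs 3 to 5), and EGFR and ERBB4 had r = -0.70 and rho = -0.59 (r = -0.37 without MDA-MB-453 and MDA-MB-468, -0.72 within runs 3 to 5). Among the ligands AREG and EREG had r = 0.72 (rho = 0.75), AREG and EPGN 0.66 (rho = 0.79), and AREG and TGFA 0.59 (rho = 0.75). Without HCC38 and MDA-MB-231 r was 0.64, 0.79 and 0.49. The values within runs 3 to 5 were 0.69, 0.81 and 0.50. HBEGF ran against ERBB3, with r = -0.68, and against ERBB2, with r = -0.76. Without HCC1395 and MDA-MB-453 the latter was -0.48. Within runs 3 to 5 these were -0.66 and -0.80.

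ERBB3 followed the epithelial markers. Its r with the score of the 15 epithelial markers was 0.94 (0.95 without the 2 farthest lines, 0.93 within runs 3 to 5). With 12 mesenchymal markers it was -0.87. TGFA had -0.73 with the mesenchymal and 0.57 with the epithelial score. ERBB2 had 0.86 with 11 luminal markers, which became 0.50 without HCC1395 and MDA-MB-453. HBEGF had -0.53 with the epithelial, 0.50 with the mesenchymal and -0.67 with the luminal score. Without HCC1395 and MDA-MB-453 the luminal value of HBEGF was -0.36. Without Hs578T and MDA-MB-157 the mesenchymal values were -0.84 for ERBB3, -0.54 for TGFA and 0.31 for HBEGF. What part the epithelial state of a line has in the levels of these genes was not tested.

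The genes most like each family member over the 15 line means were sought among 11842 protein-coding genes. For EGFR these were C2CD2 (r = 0.89), VOPP1 (0.87), which lies 0.224 Mb away, and GNAQ (0.86). Without MDA-MB-453 and MDA-MB-468 the r of C2CD2 was 0.65, that of VOPP1 0.54 and that of GNAQ 0.83. FEM1B (0.93), TMEM141 (0.93) and SMARCD2 (0.90) were most like ERBB2. ERBB3 was matched by PTPN6 (0.95), CYB561 (0.94) and SPINT2 (0.94), a protease inhibitor of epithelia, and ERBB4 by TLN2 (0.84), ANKRD30A (0.84) and NEB (0.81). ANKRD30A, a breast differentiation antigen, fell to r = 0.43 without HCC70 and MDA-MB-453.

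For the ligands, the closest genes were DHX32 (0.82), RNF149 and COA3 for AREG, and ABCE1 (0.87), ANAPC10 and WDR75 for EREG. PKP2 (0.93), which encodes a protein of desmosomes, STYK1 and ADGRG6 were closest to TGFA. IL6ST (0.87), the signalling subunit of the IL-6 family receptors, TIMP2 and ADM were closest to HBEGF. LRAT (0.90), NPTN and ATF6 were closest to BTC, and SELENOF (0.88), RPS6KA4 and FASTKD3 to EPGN. Over the 30 genes r lay between 0.81 and 0.95, and within the 11 lines of runs 3 to 5 between 0.77 and 0.96. They were picked as the highest of many, so their r values are descriptions.

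Genes near the family members were examined where a member was called higher. Neighbours are protein-coding genes with a gap of at most 1 Mb. Of the 14 tested around EGFR, all 14 were called higher in MDA-MB-468, with a median log2 difference of 2.54 against 0.03 over all genes tested there. The largest were NUPR2 (4.59), VSTM2A (4.48), SEC61G (4.33), VOPP1 (4.23) and LANCL2 (4.11), beside 4.47 for EGFR itself. In BT-20, 9 of the 14 were called higher and 0 lower, with a median of 1.26, led by LANCL2 (2.64), CHCHD2 (2.10) and MRPS17 (1.93). HCC1806, the third line with EGFR called higher, had 0 neighbours higher and 5 lower, with a median of -0.84. In MDA-MB-468 and BT-20 genes on both sides of EGFR were called higher. Of all genes tested, 14.7% were called higher in MDA-MB-468, 14.2% in BT-20 and 15.9% in HCC1806, and 9.19%, 11.3% and 13.7% lower.

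Around ERBB2 in MDA-MB-453, 8 of 36 tested neighbours were called higher and 5 lower. The higher ones lay close to ERBB2. GRB7, an adaptor protein that binds ERBB2, was at 4.21, MIEN1 at 2.54, PGAP3 at 2.18, ZPBP2 at 2.08 and ORMDL3 at 1.95, all within 239.7 kb of its start. Exons of MIEN1 and PGAP3 overlap those of ERBB2, and with the strand setting not given, their counts may include reads of ERBB2. TOP2A, 730.0 kb away, was called lower at -1.45. Around ERBB3 in the same line 7 of 52 neighbours were called higher and 1 lower. In that line 17.7% of all genes tested were called higher and 14.6% lower. Copy number was not measured in these libraries.

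**Figure D5:**
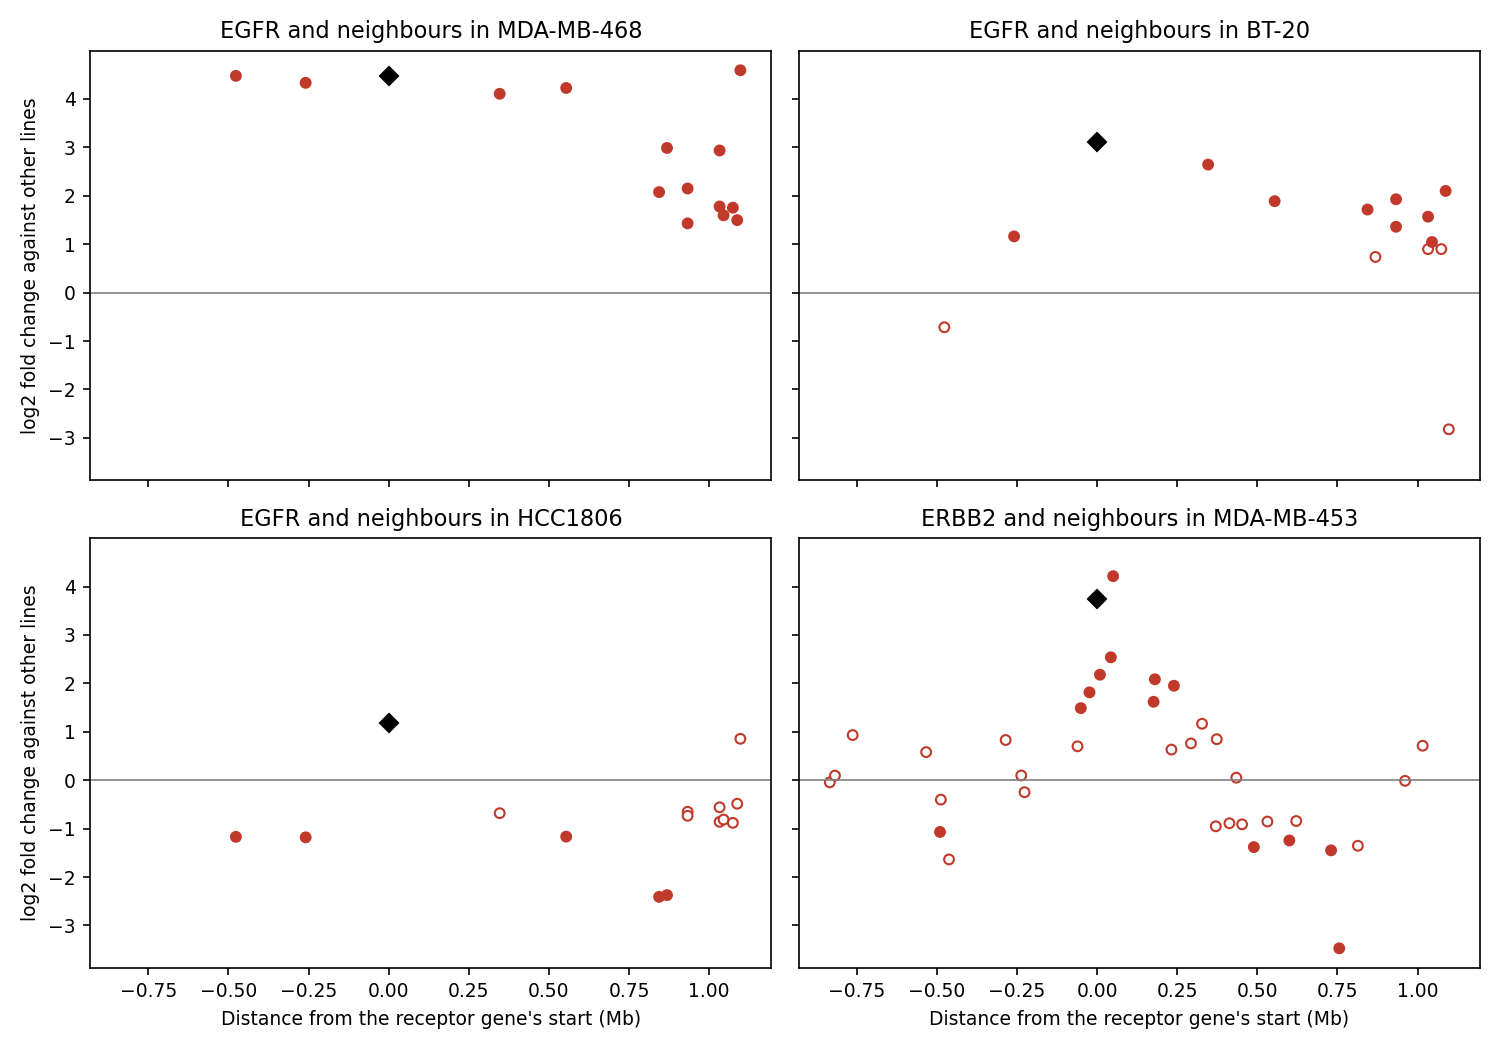
Log2 fold change against the mean of the other lines (vertical axis) of tested genes within 1 Mb of EGFR in MDA-MB-468, BT-20 and HCC1806 and of ERBB2 in MDA-MB-453, by distance of their start from the start of the receptor gene in Mb; filled circles were called, open circles were not, and the black diamond is the receptor. All 14 circles of MDA-MB-468 lie above 0, and those raised in MDA-MB-453 lie close to ERBB2.

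On chromosome 4 the ligand genes stand beside a group of CXCL chemokine genes. In HCC38, 10 of 15 tested neighbours of AREG were called higher and 0 lower, against 13.8% and 10.2% of all genes tested. The higher ones include EREG, EPGN and BTC, and CXCL6 was at 4.78 and CXCL1 at 4.60. In MDA-MB-436 EREG was called higher and AREG, BTC and EPGN lower. Each of these 3 lower calls was lost under at least 1 alternative setting. Of 16 tested neighbours of EREG in MDA-MB-436, 6 were called higher and 4 lower, where all genes tested gave 16.4% and 10.9%. The 6 are chemokine genes, led by CXCL8 at 6.66, CXCL3 at 5.88 and CXCL2 at 5.74. MDA-MB-231 had EREG, CXCL8, CXCL3, CXCL2 and CXCL1 higher among 15 neighbours of AREG and 0 lower (15% of all genes tested higher and 10.5% lower). BT-549 had the chemokines high and the ligands low. There, 7 neighbours of AREG were called higher and 5 lower, EREG, BTC and EPGN among the latter. The background of this line was 13.3% of genes higher and 10.7% lower. Near HBEGF in MDA-MB-157, 32 of 58 neighbours were called higher and 1 lower, beside 20% and 12.4% of all genes tested. Many of the 32 are clustered protocadherin genes, which resemble one another in sequence.

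Genes of the same pathway were read from lists. Of the 5 other ERBB ligands, NRG1, the neuregulin that binds ERBB3 and ERBB4, was highest in BT-549 (85.2 ± 3.84 CPM) and lowest in HCC70 (0.0963 ± 0.0869 CPM), and EGF ranged from 59.2 ± 11.9 CPM in HCC1143 to 0.816 ± 0.133 CPM in HCC1395. In MDA-MB-453 NRG1, NRG4 and EGF were called lower and NRG3 higher, so the low ligands of that line extended beyond the 6. Of 9 sheddases and their regulators, 5 were called lower in MDA-MB-453, RHBDL2, ADAM9, TIMP3, ADAM12 and ADAM17, and 1 higher. Of all genes tested there, 14.6% were called lower and 17.7% higher. ADAM17 is the protease known to release AREG, TGFA, HBEGF, EREG and EPGN. Of these 9, the sheddase inhibitor TIMP3 ranged from 487 ± 61.6 CPM in HCC1937 to 0.101 ± 0.176 CPM in HCC1395.

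Among 15 adaptors and ubiquitin ligases GRB7 and CBLC varied most. CBLC, an epithelial ubiquitin ligase of the CBL family, was at 27.4 ± 3.09 CPM in HCC1143 and 0.0999 ± 0.173 CPM in Hs578T, and GRB7 reached 38.1 ± 5.99 CPM in MDA-MB-453 and had 0 counts in HCC1395. Per line, 0 to 4 of the 15 were called higher and 0 to 3 lower. Over all genes tested the shares per line were 13.3% to 20.9% higher and 9.19% to 22.9% lower.

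The last lists hold negative regulators and ERK pathway targets, genes that growth factor signalling is known to induce. In MDA-MB-231, 7 of 14 negative regulators were called higher and 0 lower, with a median of 0.98. Of 15 ERK targets 9 were called higher and 0 lower there, with a median of 1.16, against 0.03 over all genes. Among all genes tested in that line, 15% were called higher and 10.5% lower. SPRY2 at 71.2 ± 6.10 CPM and DUSP4 at 290.2 ± 39.3 CPM were at their highest in that line. ERK targets were also called higher in 9 of 15 cases in BT-549 and Hs578T, in 8 in HCC1395 and in 6 in HCC38, HCC1937 and MDA-MB-436. Over all genes tested, 13.3% (BT-549) to 20.9% (Hs578T) were called higher in these lines. HCC1187 had 10 of 15 lower, with a median of -1.99 against 0.03 over all genes, HCC70 9 and HCC1143 8. The share of all genes called lower was 12.5% in HCC1187, 22.9% in HCC70 and 11.3% in HCC1143. MDA-MB-468, with the highest EGFR, had 2 higher and 2 lower and a median of 0.06. MDA-MB-453 had 4 higher and 7 lower. Of all genes tested, 14.7% were called higher and 9.19% lower in MDA-MB-468, and 17.7% and 14.6% in MDA-MB-453. HCC1395 and HCC70 also had ERK targets at the other extreme. DUSP4 was lowest in HCC1395 at 0.325 ± 0.0327 CPM. EMP1 was highest in HCC70 at 834 ± 58.6 CPM and lowest in HCC1187 at 2.76 ± 1.28 CPM. SPRY4, which is in both lists, was highest in HCC1395 at 37.1 ± 1.94 CPM and lowest in HCC70 at 0.128 ± 0.121 CPM.

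The comparison by medium set 5 L-15 lines against 8 RPMI 1640 lines, with counts summed over each line, and asks whether the family differs with the medium. By edgeR 0 of the 10 genes were called, as were 0% of 20505 genes in each direction. At an unadjusted p under 0.05 were 3 of the 10, against 1195 genes higher and 1149 lower of all. They were EPGN, at -3.42 (SE 1.25, adjusted p = 0.355), BTC at -2.37 (SE 0.88, adjusted p = 0.358) and ERBB4 at 1.55 (SE 0.60, adjusted p = 0.372). EPGN was 0.633 to 1.96 CPM in the L-15 lines and 0.301 to 40.1 CPM in the RPMI 1640 lines, with overlap. DESeq2 called EPGN (-3.45, adjusted p = 0.0273) and, of all genes, 178 higher and 255 lower. It gave no p-value for EGFR, ERBB2 and AREG. Single lines set several signs: without MDA-MB-468 the difference of EGFR was -0.74 in place of 1.82, and without MDA-MB-231 that of AREG was -3.94 in place of 0.37. Medium is tied to the line in this design, so the 2 cannot be told apart.

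The study's title concerns lines with high MYC, so each gene was also regressed on the log2 CPM of MYC over the 15 line sums. MYC was highest in MDA-MB-231, at 7.61 log2 CPM, and lowest in MDA-MB-453, at 4.07. By edgeR 0 of the 10 genes passed, while 0.00751% of 26615 genes rose with MYC and 0.139% fell. An unadjusted p under 0.05 was found for 3 of the 10, against 719 genes rising and 910 falling of all. The slope of ERBB2 was -0.97 (SE 0.21, adjusted p = 0.0861), that of ERBB4 -0.73 (SE 0.21, adjusted p = 0.329) and that of AREG 1.85 (SE 0.76, adjusted p = 0.727). With libraries in place of line sums and the run as a block in limma-voom, ERBB2 (-1.02, adjusted p = 0.00539) and ERBB4 (-1.22, adjusted p = 0.0393) passed. DESeq2 called EREG (2.79, adjusted p = 0.0316). Both slopes rested on MDA-MB-453, which has the most ERBB2 and ERBB4 and the least MYC. Without that line they were -0.12 for ERBB2 and -0.12 for ERBB4 over line sums, and -0.25 and -0.33 with the run as a block, where neither passed (adjusted p = 1 for both in limma-voom). The slope of AREG was 0.81 over the 11 lines of runs 3 to 5.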

How the data were processed

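Total RNA of 15 cell lines, depleted of ribosomal RNA, was made into ScriptSeq v2 libraries, per the labels' protocols. The deposited table holds raw counts per gene, and per the submitters' processing notes bcl2fastq 2.20.0.422, FastQC, MultiQC, Trimmomatic, STAR, featureCounts and GRCh38.p12 were used to make it. The annotation release and the strand setting were not given in the sources used here. Identifiers of 58275 of 64485 genes (90.4%) matched GENCODE 29.

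The family members and gene lists were chosen with earlier results of these data known. Counts were analysed in R 4.3.3 with edgeR 4.0.16: genes were kept by filterByExpr (minimum count 10, minimum total 15), scaled by TMM, and tested with the quasi-likelihood F test with Benjamini-Hochberg adjustment over all genes tested. Calls needed an adjusted p under 0.05 and, for lines and media, a log2 fold change of at least 1. Media and the slope on MYC were tested on counts summed per line. DESeq2 1.42.0 and limma-voom (limma 3.58.1) were alternatives, as were other scalings, no filter, leaving out a replicate or line, and comparisons within runs. A replicate number was left out of every line at once, except for replicate 2 of Hs578T, which was also left out alone. Correlations used log2 CPM with a prior count of 2. Levels per length used merged exons. The precision of a level is set by its counts. Poisson intervals (95%) cover counting error only.

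Replicate numbers 1, 2 and 3 of 11 lines mark runs 3, 4 and 5, per the labels, so they pair the libraries by run. Deviations from the line means correlated with a mean r of 0.0589 over 165 pairs of libraries of the same run (range -0.177 to 0.331) and -0.0294 over 330 pairs of different runs. The deviations of a line sum to 0, which ties these means to each other with opposite signs, so they are not separate measurements. The analysis was tested on simulated data. Named genes were all family members, the 3 genes most like each in level and the 2 most variable genes of each pathway list. Up to 5 called neighbours were named in some lines. Called list genes were named in some places and only counted in others. Few genes of the marker lists were named. Other neighbours and list genes were named after their values were seen.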

Additional observations from a re-analysis of the deposited data

Results flagged for a closer look

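Each gene's levels were examined for a line far from the others within the 5 L-15 lines and the 8 RPMI 1640 lines, which makes 20 groups, and chance alone would single out about 1 in 20. In 4 groups 1 line stood apart by Dixon's criterion. ERBB2 in MDA-MB-453 was at 9.01 log2 CPM, and the nearest L-15 line was at 5.25. ERBB4 in the same line was at 4.72, with the nearest at 2.21. AREG in MDA-MB-231 was at 7.87, far above the next L-15 line at 1.76. TGFA in BT-549, the 1 low value of the 4, was at -0.43, and the next RPMI 1640 line was at 4.29.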

How the results depend on the processing

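Of the 94 calls of a gene in a line, 82 passed under all 10 alternative settings, 12 were lost under at least 1 and none changed sign, and 12 pairs not called were called under at least 1. With the run as a replicate block, 46 calls were higher and 46 lower, and apart from ERBB2 in Hs578T and BTC in MDA-MB-436 the pairing changed no call in a line. Within its own runs HBEGF in HCC38 was at -1.08. With the longest transcript as length, ERBB2 led the receptors in 5 lines and ERBB3 in 1, and without 1 replicate ERBB3 led in 1 to 2.

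By medium, DESeq2 called 178 genes higher and 255 lower, among them 1 family gene. It gave no p-value for EGFR, ERBB2 and AREG, and its difference for AREG was 2.00. Limma-voom with the replicate block called 53 genes higher and 152 lower. That fit turned the sign of EGFR (-0.51), ERBB3 (-0.99) and HBEGF (-0.34), and the 11 lines of runs 3 to 5 that of AREG (-2.45). Leaving out 1 line or replicate gave EGFR -0.74 to 2.13, ERBB2 -0.64 to 1.63, ERBB3 -1.44 to 0.74, AREG -3.94 to 2.00 and EREG -1.92 to 2.14. 

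For the slope on MYC the genes rising and falling were 102 and 142 by DESeq2 (with 1 family gene rising), 1 and 0 with L-15 as a covariate, 7 and 70 with no filter, 1 and 18 over the 11 lines, 53 and 164 with the replicate block (with 2 family genes falling), and 0 to 2 and 0 to 50 without 1 line or replicate, where 0 to 1 family genes fell (ERBB2 without MDA-MB-157). The slope of EGFR was 0.0714 with the covariate, 0.00546 with no filter, 1.33 over the 11 lines and 0.80 with the block, and that of EPGN 0.44 with no filter. With the block but without MDA-MB-453, a fit added after seeing the data, 12 genes rose and 56 fell, 0 of them family members, and the slopes of EGFR and ERBB3 turned to 0.18 and 0.15. Leaving out 1 line or replicate gave -1.40 to 0.78 for EGFR, -1.09 to -0.12 for ERBB2, -0.19 to 1.05 for BTC and -1.83 to 0.97 for EPGN. The cause of these changes was not tested.

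Without the 2 lines farthest from the receptor's median, r of EGFR was 0.35 with EREG, 0.30 with TGFA, -0.48 with HBEGF (0.30 with a prior count of 0.5), 0.0201 with BTC and 0.31 with EPGN, and r of ERBB4 0.44 with HBEGF, -0.14 with BTC and 0.00766 with EREG. Over the 11 lines of runs 3 to 5, a comparison chosen after seeing the data, r of EGFR was 0.25 with AREG, 0.30 with EREG, 0.56 with TGFA, 0.29 with HBEGF and 0.38 with EPGN, and r of ERBB4 -0.62 with HBEGF and -0.65 with BTC. Without 1 line r was 0.0602 to 0.208 (EGFR and AREG), 0.14 to 0.38 (EGFR and EREG), 0.30 to 0.58 (EGFR and TGFA), -0.56 to 0.41 (EGFR and HBEGF), 0.000387 to 0.292 (EGFR and BTC), 0.20 to 0.38 (EGFR and EPGN), -0.48 to 0.46 (ERBB4 and HBEGF), -0.57 to -0.32 (ERBB4 and BTC), -0.217 to 0.0254 (ERBB4 and EREG). Depth limits the low levels: the lowest line of each ligand rested on 3 (EREG) to 11 (BTC) counts over 3 libraries.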
